A study of Rattus norvegicus with 8 samples.

Results

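The genes described here mark microglia and the first component of complement: Aif1, Itgam, Csf1r, Cx3cr1, P2ry12, Tyrobp, Adap2 and the genes of the C1q chains, C1qa, C1qb and C1qc. They were picked by name, with earlier results on these rats known, and make up 10 of the 26981 genes tested. They had 15 probes on the array. The array design gives C1qc under its older name C1qg and Adap2 under its older name Centa2.

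The material was medial thalamus from 8 male Sprague-Dawley rats under urethane, each carrying an inflatable cuff around the trachea. In the 4 occlusion rats the cuff closed the airway for 2 to 4 breaths at a time with at least 15 open breaths between, for 10 min, and the brain was taken straight afterwards. In the 4 control rats the cuff was left deflated and the brain was taken 70 min after surgery. Time under anaesthesia cannot be told apart from occlusion, because the sources used here give no such time for the occlusion rats. Each rat was hybridised in Cy5 on a 2-colour oligonucleotide array against a Cy3 pool of all 8 rats, without dye swap, so every value below is a log2 ratio of the rat to that pool unless a signal is named.

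Microglia are the resident macrophages of the brain and depend on the receptor encoded by Csf1r for survival. They sense neurons and tissue through receptors such as CX3CR1 and P2RY12, and signal through the adaptor TYROBP (DAP12), the partner of TREM2. In the brain they are also the main source of C1q, whose A, B and C chains assemble into 1 molecule that starts the classical complement pathway and tags synapses and debris for removal. The samples are pieces of whole tissue, so fewer microglia and less RNA per microglial cell cannot be told apart in any value below.

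Control 3 stood apart from the other 7 rats in markers of brain region. Its mean over 11 thalamic relay neuron markers was -1.91, against -0.23 to 0.21 in the others, and its ratios had a median correlation of -0.12 with the other arrays. Control 1 had the fewest spots well above background in Cy5, 68.3%, against 74.8% to 80.2% on the other arrays. The arrays lay on 2 slides, with occlusion 1 and 2 and control 3 and 4 on slide 1 and the rest on slide 2. With 4 rats in each group, the precision of every value is limited.

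Promoters of several macrophage genes, Csf1r and Itgam among them, are known for sites of PU.1, a transcription factor of macrophage identity that binds purine-rich sequences around GGAA. Promoters of 6 of the 10 genes were in the RefSeq table of the rat assembly GRCr8, each from 250 bases before to 50 bases after the gene's start. The promoters of Aif1, P2ry12, Tyrobp and C1qc were not used here. The ones shown are those the results below turn on. C1qb is shown because it lies near C1qa on chromosome 5, with C1qc between them. The others shown are those of C1qa, Csf1r and Cx3cr1, whose pairwise correlations across the rats are described below. None of those correlations passed after adjustment. Capitals mark matches to GNGGAAG or GGAAGT on either strand, so CTTCCNC and ACTTCC are marked too.
C1qa, chr5:154419884-154420183, minus strand: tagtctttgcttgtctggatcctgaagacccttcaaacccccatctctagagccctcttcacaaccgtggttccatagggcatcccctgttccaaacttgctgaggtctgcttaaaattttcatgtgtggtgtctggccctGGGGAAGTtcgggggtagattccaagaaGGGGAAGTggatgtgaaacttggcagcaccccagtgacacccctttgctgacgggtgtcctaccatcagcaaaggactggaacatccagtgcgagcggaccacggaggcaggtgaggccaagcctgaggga
C1qb, chr5:154407778-154408077, minus strand: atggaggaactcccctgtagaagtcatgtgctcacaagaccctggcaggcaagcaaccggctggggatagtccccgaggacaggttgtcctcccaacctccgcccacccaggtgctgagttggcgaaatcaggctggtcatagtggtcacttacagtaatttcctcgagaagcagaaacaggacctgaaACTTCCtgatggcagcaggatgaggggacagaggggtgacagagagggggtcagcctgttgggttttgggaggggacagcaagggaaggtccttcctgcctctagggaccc
Csf1r, chr18:56834129-56834428, plus strand: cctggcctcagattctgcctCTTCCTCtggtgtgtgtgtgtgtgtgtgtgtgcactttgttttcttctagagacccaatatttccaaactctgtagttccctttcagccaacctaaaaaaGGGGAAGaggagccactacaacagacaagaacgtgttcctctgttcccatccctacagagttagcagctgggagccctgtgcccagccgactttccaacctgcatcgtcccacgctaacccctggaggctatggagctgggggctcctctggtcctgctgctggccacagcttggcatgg
Cx3cr1, chr8:128677017-128677316, minus strand: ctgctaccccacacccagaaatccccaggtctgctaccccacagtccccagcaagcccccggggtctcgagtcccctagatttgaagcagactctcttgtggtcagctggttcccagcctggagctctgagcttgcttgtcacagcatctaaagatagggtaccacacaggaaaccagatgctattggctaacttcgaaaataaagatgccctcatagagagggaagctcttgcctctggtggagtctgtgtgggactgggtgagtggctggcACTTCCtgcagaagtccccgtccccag

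In the C1qa promoter both motifs overlapped in a run that occurred 2 times, beginning at positions -109 and -81 from the start. The Csf1r promoter held GNGGAAG at 2 places, and the C1qb and Cx3cr1 promoters each held GGAAGT once. Of the other promoters read, that of Itgam held GNGGAAG at 2 places, and that of Adap2 held neither motif. In all, 5 of the 6 promoters had a match to at least 1 motif, against 41.4% of all 33469 promoters in the table. GNGGAAG alone was in 3 of the 6 and in 29.7% of all promoters, and GGAAGT alone in 3 of the 6 and in 22.6%. These are matches of letters in a window, and binding was not measured.

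All 10 genes were measurable in this tissue. Of their 15 probes, 14 were well above background in Cy5 on all 8 arrays, the other (a second probe of Tyrobp) on 7, and none was saturated on any array. The background-subtracted Cy5 signal of C1qb ran from 8008 to 12241, and that of Cx3cr1 from 113 to 200, each within its own probe only. The spread over the arrays was wider in the rats' channel than in the pool's channel for 10 of 10 genes, as it was for 78.3% of all tested probes. The smallest such ratio of SDs among the 10 genes was 1.66 and the largest 9.92, for Aif1.

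Between the groups the 10 genes showed no common direction. Under occlusion 6 were higher and 4 lower, and the median of their log2 differences was 0.04, beside 0.0008 over all 26981 genes. At an adjusted p under 0.05 (limma, with Benjamini-Hochberg adjustment over all genes) none of the 10 passed, where 0% of all genes passed. An unadjusted p under 0.05 was found for 1 of the 10 and for 3.12% of all genes. Of the 10, Adap2 alone had groups that did not overlap, where 2.54% of all genes had such groups and 1.19% with occlusion the higher one. As the genes were chosen with this contrast known, their differences are given below as descriptions, without a test.

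**Figure D1:**
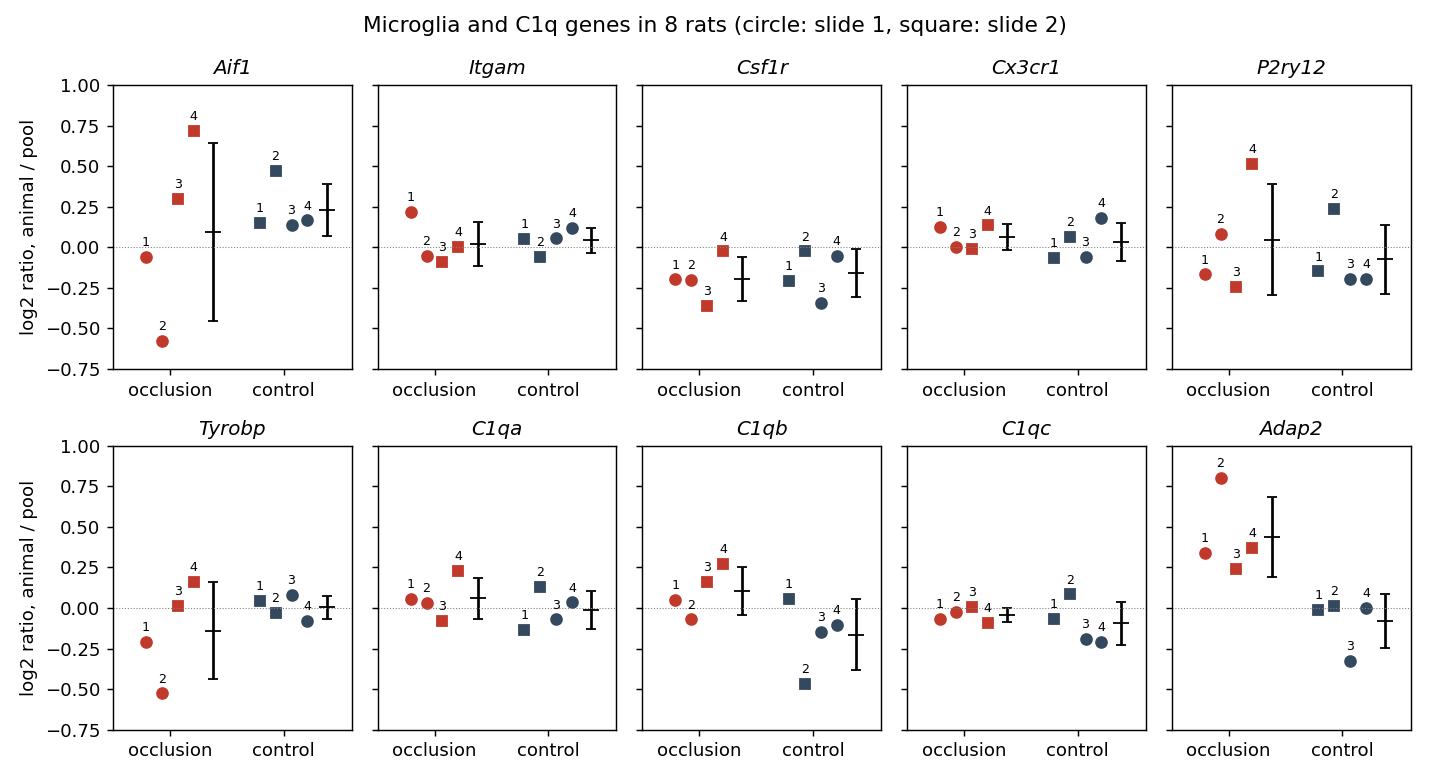
Log2 ratio of each rat to the pool (vertical axis) for the 10 genes, with occlusion rats on the left and control rats on the right of each panel. Numbers name the rat, circles and squares are slides 1 and 2, and bars show the group mean and SD (n = 4). Aif1, Tyrobp and P2ry12 spread widely among occlusion rats, and Adap2 is the gene whose groups do not overlap.

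The C1q chains are encoded by 3 genes that lie side by side on chromosome 5 in the order C1qb, C1qc, C1qa, with no other gene of the RefSeq table between them. On the array, in the rn3 coordinates its files name, the probe used for C1qa lay at 155672617 to 155672676, that for C1qc at 155666677 to 155666736 and that for C1qb at 155657575 to 155657634 of chromosome 5. Whether these positions are exonic or untranslated was not looked up, because no annotation of that build was given.

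C1qb had log2 ratios of 0.05, -0.07, 0.16 and 0.27 in occlusion 1 to 4, against 0.06, -0.47, -0.15 and -0.10 in control 1 to 4. Control 2 was the lowest rat and occlusion 4 the highest, and the groups overlapped because control 1 lay above occlusion 1 and 2. The means were 0.10 ± 0.15 under occlusion and -0.17 ± 0.22 in controls (SD, n = 4 each), a log2 difference of 0.27 ± 0.12 (SE). It was 0.11 within slide 1 and 0.42 within slide 2, and 0.17 without control 2.

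C1qa stayed closer to the pool. Its log2 ratios were 0.05, 0.03, -0.08 and 0.23 in occlusion 1 to 4, against -0.14, 0.13, -0.07 and 0.03 in control 1 to 4. The groups overlapped almost entirely, with occlusion 4 the highest rat and control 1 the lowest, and the log2 difference was 0.07 ± 0.09 (SE). It was 0.01 without occlusion 4, 0.03 without control 1 and 0.12 without occlusion 3 or without control 2. A second C1qa probe, at 155672806 to 155672865 of chromosome 5 (rn3), gave 0.03.

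C1qc varied least of the 3 chains. It had log2 ratios of -0.07, -0.03, 0.01 and -0.09 in occlusion 1 to 4, against -0.07, 0.08, -0.19 and -0.21 in control 1 to 4. All occlusion rats lay inside the range of the controls, and the log2 difference was 0.05 ± 0.08 (SE), with 0.02 from a second, dimmer probe. It was 0.15 within slide 1 and -0.05 within slide 2, and with a rat left out it ran from 0.01 without control 4 to 0.11 without control 2, with 0.02 without control 3.

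The 3 chains form 1 protein, and their ratios had low correlations with each other. The mean of the 3 pairwise correlations across the 8 rats was -0.033: 0.168 between C1qa and C1qc, -0.028 between C1qa and C1qb, and -0.240 between C1qb and C1qc. These values hung on single rats, shown by leaving out the 2 farthest from the median of the gene named first. Between C1qb and C1qc r was 0.788 without control 2 and occlusion 4. Without occlusion 4 and control 1 it was 0.416 between C1qa and C1qc and -0.664 between C1qa and C1qb. The average of the 3 genes in occlusion 1 to 4 was 0.01, -0.02, 0.03 and 0.14, whereas control 1 to 4 had -0.05, -0.09, -0.14 and -0.09. These averages, of the brightest probe of each gene, did not overlap and differed by 0.13, with C1qb the chain of the largest difference. Each chain alone had groups that overlapped. Of all single genes, 1.19% had groups that did not overlap with occlusion the higher one. With both probes of C1qa and of C1qc averaged first, control 1 lay above occlusion 1 and 2, so the groups overlapped. No p is given for a score over chosen genes.

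Csf1r encodes the receptor for the growth factors CSF1 and IL34, on which microglia depend. Its log2 ratios were -0.20, -0.20, -0.36 and -0.03 in occlusion 1 to 4, against -0.21, -0.03, -0.34 and -0.06 in control 1 to 4. The groups covered the same range, and the log2 difference was -0.04 ± 0.10 (SE). With a rat left out it ran from -0.10, without control 3 or without occlusion 4, to 0.02 without occlusion 3, and it was above 0 without control 2 too. Its probe lay on chromosome 18 at 57177463 to 57178164 (rn3). A second, dimmer probe, designed to another transcript record, gave -0.12. Its background-subtracted Cy5 signal was 69.2 to 106, close to background. It followed the first probe only loosely, with its largest gap of 0.41 in control 1.

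Cx3cr1 encodes the receptor for fractalkine, the neuronal ligand CX3CL1. It had log2 ratios of 0.13, 0.00, -0.01 and 0.13 in occlusion 1 to 4, against -0.06, 0.06, -0.06 and 0.18 in control 1 to 4. The groups overlapped, with control 4 the highest rat, and the log2 difference was 0.03 ± 0.08 (SE). With a rat left out it ran from 0.0008 without control 1 to 0.08 without control 4, with 0.0032 without control 3. Its spread over the 8 rats, an SD of 0.09, was among the smaller ones, larger than in 20.5% of all genes.

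P2ry12 encodes an ADP receptor that steers microglial processes towards injured cells. Its log2 ratios were -0.17, 0.08, -0.24 and 0.51 in occlusion 1 to 4, against -0.15, 0.24, -0.19 and -0.20 in control 1 to 4. In each group 1 rat stood high, occlusion 4 and control 2, and the groups overlapped. The log2 difference of 0.12 ± 0.17 (SE) turned to -0.03 without occlusion 4 and was 0.23 without control 2.

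Itgam encodes CD11b, the alpha chain of complement receptor 3, which binds cleaved C3. It had log2 ratios of 0.22, -0.05, -0.09 and 0.00 in occlusion 1 to 4, against 0.05, -0.06, 0.05 and 0.12 in control 1 to 4. Occlusion 1 was the highest rat and the groups overlapped, with a log2 difference of -0.02 ± 0.08 (SE). From the scanner software's own ratios the difference was -0.21, and with a rat left out it ran from -0.09 without occlusion 1 to 0.01 without occlusion 3.

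Tyrobp encodes the DAP12 adaptor that carries signals from TREM2 and related receptors. Its log2 ratios were -0.21, -0.53, 0.01 and 0.16 in occlusion 1 to 4, against 0.05, -0.03, 0.08 and -0.08 in control 1 to 4. Occlusion 2 was the lowest and occlusion 4 the highest, so the occlusion rats enclosed all the controls. The log2 difference was -0.14 ± 0.14 (SE), and it was -0.01 without occlusion 2 and -0.24 without occlusion 4.

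Aif1 encodes IBA1, the calcium-binding protein used to stain microglia. It had log2 ratios of -0.06, -0.58, 0.30 and 0.72 in occlusion 1 to 4, against 0.15, 0.47, 0.14 and 0.17 in control 1 to 4. The same occlusion rats as for Tyrobp lay at the ends, occlusion 2 lowest and occlusion 4 highest. The SD was 0.55 among occlusion rats and 0.16 among controls, and over all 8 rats it was larger than in 92.9% of genes. The log2 difference was -0.14 ± 0.24 (SE), and it was 0.09 without occlusion 2, -0.34 without occlusion 4 and -0.06 without control 2. On the array Aif1 had a single probe, on chromosome 20 at 3715789 to 3716370 (rn3).

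Adap2 encodes a GTPase-activating protein for Arf GTPases that binds phosphoinositides. It had log2 ratios of 0.34, 0.80, 0.24 and 0.37 in occlusion 1 to 4, against -0.01, 0.01, -0.33 and 0.00 in control 1 to 4. Every occlusion rat lay above every control, with occlusion 2 far the highest and control 3 far the lowest. The means were 0.44 ± 0.25 under occlusion and -0.08 ± 0.16 in controls (SD, n = 4 each), a log2 difference of 0.52 ± 0.13 (SE).

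The size of the Adap2 difference depended on rats and probe. It was 0.44 without control 3, 0.40 without occlusion 2, 0.73 within slide 1 and 0.30 within slide 2. The probe used lay on chromosome 10 at 68403499 to 68403558 (rn3), and a second, dimmer Adap2 probe at 68399327 to 68400998 gave 0.23. Its log2 ratios were -0.02, 0.34, -0.02 and 0.04 in occlusion 1 to 4, against -0.0035, -0.19, -0.25 and -0.14 in control 1 to 4. On that probe control 1 lay above 2 occlusion rats, so the groups overlapped.

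**Figure D2:**
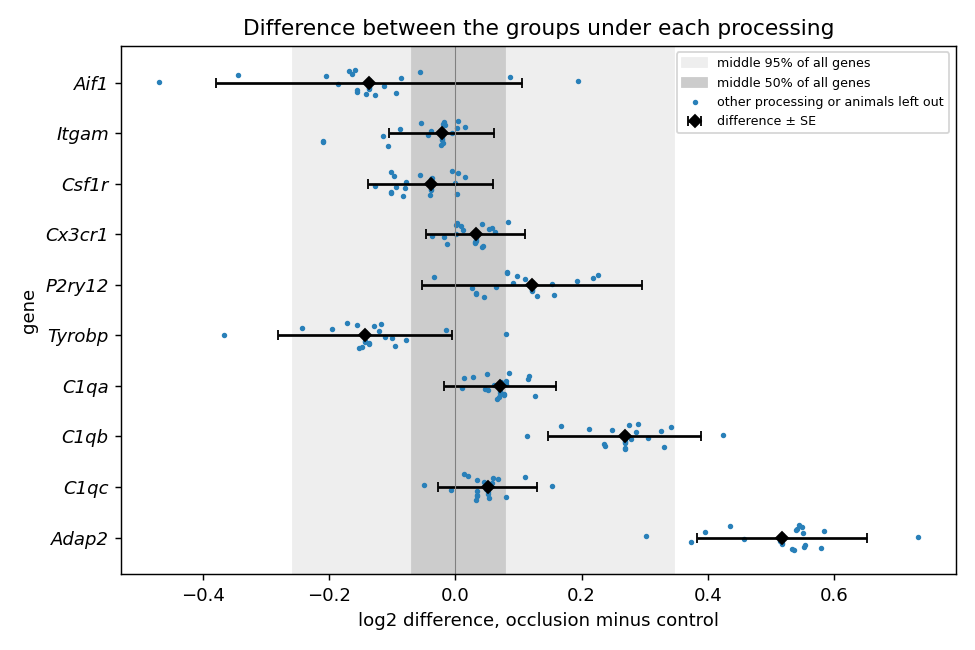
Log2 difference, occlusion minus control (horizontal axis), for each gene, as a diamond with its SE and as dots for other ways of processing and for each rat left out. Shaded bands hold the middle 50% and the middle 95% of all 26981 genes. The middle 95% runs from -0.26 to 0.35, and Adap2, at 0.52, is the gene whose diamond lies outside it.

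For 5 genes a second probe gave a check within the same rats. Across the 8 rats the ratios of both probes had a Pearson r of 0.927 for Adap2, 0.624 for C1qc, 0.587 for C1qa, 0.470 for Tyrobp and 0.405 for Csf1r. Over the 3210 genes of the array with 2 such probes the median r was 0.489, with a middle range of 0.123 to 0.760. Adap2 lay above that range and the other 4 inside it. Spearman's rho was 0.714 for both Adap2 and Tyrobp, 0.619 for C1qc, 0.524 for C1qa and 0.405 for Csf1r. The 2 Tyrobp probes lie next to each other on chromosome 1 in rn3, at 85447221 to 85447280 and at 85447153 to 85447212, and the files give their coordinates in opposite directions. They differed most in occlusion 2, by 0.41, where the brighter probe was -0.53 and the dimmer -0.12. The dimmer probe had a background-subtracted Cy5 signal of 68.8 to 117, close to background, and in occlusion 2 it also read below the pool. For Aif1, low in the same rat, no second probe was there to compare.

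**Figure D3:**
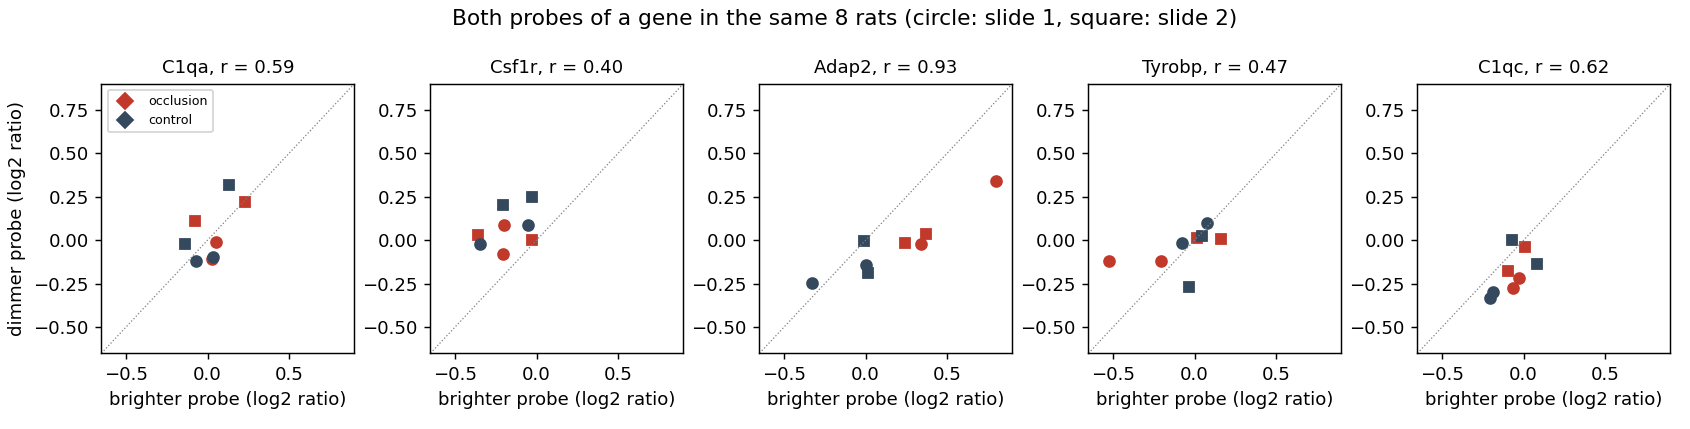
Log2 ratio of the dimmer probe (vertical axis) against the brighter probe (horizontal axis) of the same gene in 8 rats, for the 5 genes with 2 probes, colour giving the group and shape the slide. The dotted line marks equal values, and Adap2 shows the highest Pearson's r, with the occlusion 2 point at 0.80 and 0.34.

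Correlations among the 10 genes across the 8 rats ranged widely. All 45 pairs were compared by Pearson's r and Spearman's rho, each with an exact permutation p, and 31 had an r above 0, with a mean r of 0.148. No pair passed after Benjamini-Hochberg adjustment over the 45, the smallest adjusted p being 0.158, and 4 had an unadjusted p under 0.05 for r. All rats share the pool and lie on 2 slides, which these values also contain. Each gene enters by its brightest probe only, and the same correlations with second probes were not computed.

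Aif1 and Tyrobp had the highest correlation, an r of 0.893 (n = 8, exact permutation p = 0.0042, adjusted 0.158). Spearman's rho was 0.595 (exact permutation p = 0.132, adjusted 0.850). Without occlusion 2 and 4, the rats at the ends for Aif1, r was 0.445, so much of the relation rests on those 2 rats together. Without occlusion 2 alone r was 0.692, and without occlusion 4 alone it was 0.877. After taking out the slide means it was 0.839. All these values use the brighter Tyrobp probe, which the dimmer one followed with an r of 0.470.

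For C1qa the highest r were with 3 receptor genes of microglia, none passing after adjustment. Its r was 0.847 with P2ry12, 0.778 with Csf1r and 0.727 with Cx3cr1 (n = 8, exact permutation p = 0.0070, 0.0254 and 0.0433, adjusted 0.158, 0.381 and 0.399). Spearman's rho was 0.595, 0.881 and 0.810 in the same order (exact permutation p = 0.132, 0.0072 and 0.0218, adjusted 0.850, 0.326 and 0.490). After taking out the slide means the r were 0.887, 0.776 and 0.766.

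These relations differed in how far they hung on high rats. The rats left out below were those farthest from the median of the gene named first, and all lay at its high end. Without control 2 and occlusion 4, r fell to 0.348 between P2ry12 and C1qa and 0.545 between Csf1r and C1qa. Between Cx3cr1 and C1qa it was 0.807 without control 4 and occlusion 4. Csf1r and Cx3cr1 had an r of 0.720 with each other (n = 8, exact permutation p = 0.0523, adjusted 0.399) and 0.739 without control 2 and occlusion 4. Their rho was 0.738 (exact permutation p = 0.0458, adjusted 0.648). All values for C1qa here come from 1 of its 2 probes. Those probes had an r of 0.587 with each other and differed most in occlusion 3, by 0.19. How far the relations of C1qa depend on the probe was not tested.

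Adap2 had an r above 0 with 6 of the other 9 genes, 0.380 with C1qc at the most, and below 0 with Itgam, Aif1 and Tyrobp. Its lowest r was -0.704 with Tyrobp (n = 8, exact permutation p = 0.0620, adjusted 0.399), with a rho of -0.405 (exact permutation p = 0.327, adjusted 0.919). Occlusion 2, highest for Adap2 and lowest for Tyrobp, carried most of that value, and r was -0.187 without it. The highest r of C1qb with any of the other 9 genes was 0.345, with Adap2.

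**Figure D4:**
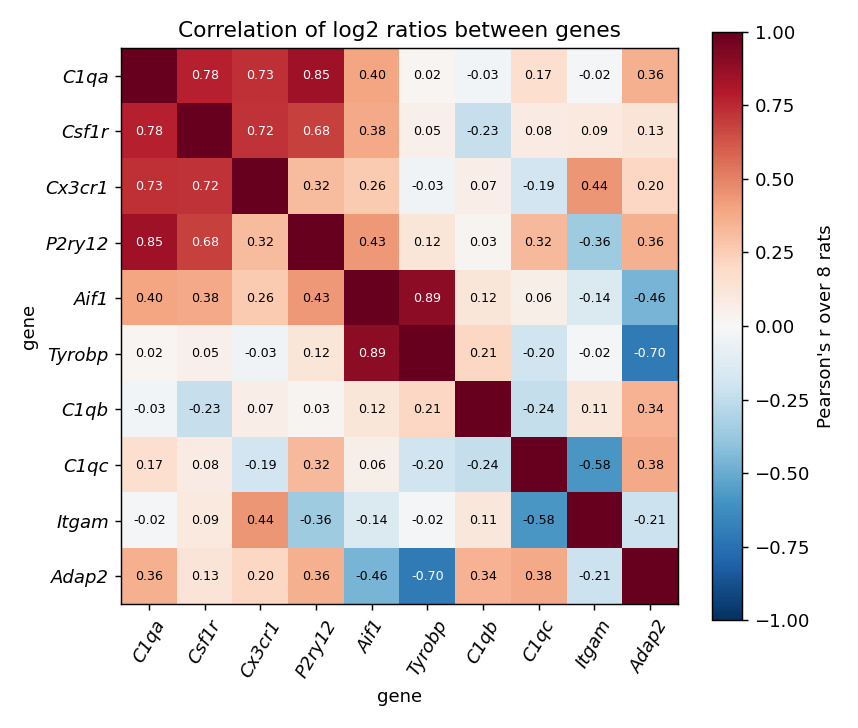
Pearson's r of the log2 ratios over 8 rats for each pair of the 10 genes (both axes), coloured from -1 in blue to 1 in red. The deepest reds are Aif1 with Tyrobp (0.893) and C1qa with P2ry12 (0.847), Csf1r (0.778) and Cx3cr1 (0.727), whereas Cx3cr1 with P2ry12 is at 0.317 and C1qb has no r above 0.345.

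Single rats stood at the end of several genes at once. Occlusion 4 was the highest of the 8 rats for 5 of the 10 genes, beside 9.22% of all genes, and occlusion 3 the lowest for 3, beside 10.2%. In the other microglia genes listed below, occlusion 4 was highest in 15.4%, less often than control 3 (25.6%) and than occlusion 1 and control 2 (17.9% each). Occlusion 2 was lowest in 25.6% of them, where occlusion 2 was the lowest rat in 9.87% of all genes. Endothelial and pericyte markers were also highest in occlusion 4, with list means of 0.13 and 0.15, against -0.15 to 0.0003 and -0.20 to 0.13 in the other 7 rats. The part of vessels in these values was not tested.

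The slides were compared as a batch that the choice of genes did not use. On slide 2, 7 of the 10 genes were higher and 3 lower than on slide 1, beside 46.7% of all genes higher on slide 2. The median of the 10 log2 differences was 0.06, and none passed (limma, Benjamini-Hochberg), where 0% of all genes passed. An unadjusted p under 0.05 was found for 1 of the 10 and for 6.59% of all genes. Aif1 was higher on slide 2 by 0.49 ± 0.19 (SE), with an unadjusted p of 0.0305 and an adjusted p of 0.707 in that fit. It was higher in 4 of 4 slide 2 rats than the pool and in 2 of 4 slide 1 rats.

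Whether the occlusion difference itself changed with the slide was tested as an interaction. For Aif1 the difference was -0.47 within slide 1 and 0.19 within slide 2, an interaction of 0.66 ± 0.31 (SE) with an adjusted p of 0.880 (limma). For Tyrobp it was -0.37 and 0.08, an interaction of 0.45 ± 0.19 (SE) with an adjusted p of 0.880. None of the 10 genes passed, where 0% of all genes did, and an unadjusted p under 0.05 was found for 0 of the 10 and for 4.33% of all genes.

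The genes most like the C1q mean were sought among the 21829 other genes above background on all arrays, by Pearson's r with the mean of C1qa, C1qb and C1qc over the 8 rats. That mean followed C1qb most, with an r of 0.772, against 0.502 for C1qa and 0.244 for C1qc. The 10 highest of those with a symbol were Rpgr (0.947), Amy1 (0.934), Zfp748-ps1 (0.910), Slc30a9 (0.905), Acsl3 (0.901), Nenf (0.889), Pou2f1 (0.883), Oxt (0.880), G0s2 (0.879) and Pde6h (0.871). None of these was on the microglia or complement lists below. They include Slc30a9, a zinc transporter gene, Acsl3, which activates fatty acids, Pou2f1, which encodes the transcription factor OCT1, and Oxt, which encodes oxytocin. In all, 75 genes (0.344%) had an r above 0.8. The 10 named genes all had a log2 difference above 0, from 0.10 for Acsl3 to 1.46 for Oxt. The C1q mean was itself higher under occlusion, by 0.13, so this order also contains the contrast between the groups. No test was made of it. In the same order of all 21829 genes Adap2 ranked 980, with r of 0.610, P2ry12 ranked 1763, Cx3cr1 5001, Aif1 5194, Csf1r 7391, Tyrobp 8806 and Itgam 13134.

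The wider microglial programme was followed in lists of known genes. Over all genes, 50.2% were higher in occlusion rats and 3.12% had an unadjusted p under 0.05 (limma), the shares to set beside each list below. Of 40 tested microglia identity genes besides the 10, 25 were higher and 15 lower in occlusion rats, the median log2 difference was 0.02, and 0 passed the test (limma, adjusted p), nor had any an unadjusted p under 0.05. Tlr2, a receptor for bacterial lipoproteins, differed by 0.23 ± 0.10 (SE), Pik3ap1, an adaptor for phosphoinositide 3-kinase, by 0.15 ± 0.07, and Cybb, the catalytic chain of the phagocyte oxidase, by -0.14 ± 0.07. Cybb was the 1 gene of the 40 whose groups did not overlap, a share near the 2.54% of all genes. Its log2 ratios were 0.03, -0.0015, 0.0032 and -0.03 in occlusion 1 to 4, against 0.31, 0.09, 0.08 and 0.09 in control 1 to 4. Control 1 was the lowest of the 8 rats in 33.3% of the 39 genes measured everywhere, beside 15.5% of all genes. Among genes with a probe, Siglech and Cd180 were above background on 0 arrays and P2ry13 and Spi1 on 1, so they were not tested.

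Ligands and partners of the receptors did not move as a group either. Of 11 tested, 5 were higher and 6 lower in occlusion rats, with a median of -0.03. There 0 passed (limma, adjusted p), and 1 had an unadjusted p under 0.05, beside 3.12% of all genes. Csf1, the ligand of the Csf1r product, had log2 ratios of 0.50, -0.01, 0.15 and 0.20 in occlusion 1 to 4, against 0.02, -0.36, -0.27 and -0.10 in control 1 to 4. The groups overlapped through control 1 and occlusion 2, and the difference was 0.39 ± 0.13 (SE). Adam10, which sheds membrane proteins, differed by 0.16 ± 0.09 and Grb2, an adaptor of receptor kinases, by -0.20 ± 0.15. Trem2, the receptor that pairs with the Tyrobp product, differed by -0.25 ± 0.19 and Cx3cl1, the ligand of the Cx3cr1 product, by -0.04 ± 0.17.

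The list of the complement cascade took in the lectin and alternative pathways besides the classical pathway of C1q. Of its 13 tested genes 6 were higher and 7 lower, with a median of -0.01. In it 0 passed (limma, adjusted p), and 1 had an unadjusted p under 0.05, beside 3.12% of all genes. C1r and C1s, the proteases that complete the C1 complex with C1q, differed by -0.09 ± 0.16 and 0.03 ± 0.11. C3, the central component, differed by 0.01 ± 0.16. C2, cleaved by C1s, had log2 ratios of 0.16, 0.02, -0.09 and -0.10 in occlusion 1 to 4, against -0.85, -0.08, -0.49 and -0.25 in control 1 to 4. Control 2 lay above occlusion 3 and 4, so the groups overlapped, and the difference was 0.41 ± 0.16 (SE). Masp2, a protease of the lectin pathway, differed by -0.11 ± 0.08 and Cfd, factor D of the alternative pathway, by 0.10 ± 0.13.

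Of 18 tested regulators and receptors of complement, 6 were higher and 12 lower, with a median of -0.02 and 0 passing (limma, adjusted p). An unadjusted p under 0.05 was found for 1 of the 18 and for 3.12% of all genes. Megf10, an engulfment receptor of astrocytes that binds C1q, differed by 0.19 ± 0.08, C5ar1, the receptor for C5a, by 0.16 ± 0.07 and Cd46, a membrane cofactor, by -0.14 ± 0.08. Genes that share the globular C1q domain but do not belong to complement gave 12 higher and 7 lower of 19. Their median was 0.11 and 0 passed (limma, adjusted p). Of the 19, 2 had an unadjusted p under 0.05, beside 3.12% of all genes. C1ql2, a synaptic organiser, differed by 0.52 ± 0.16, Mmrn2, of endothelial matrix, by 0.29 ± 0.08 and C1qtnf7 by -0.14 ± 0.08. The median of this family was 0.21 within slide 1 and -0.01 within slide 2.

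Genes that microglia switch on when activated gave 13 higher and 4 lower of 17 tested, where 50.2% of all genes were higher. Their median was 0.07, 0 passed (limma, adjusted p), and none had an unadjusted p under 0.05. Spp1, which encodes osteopontin and is also made by other cells, had log2 ratios of 2.59, -1.08, -0.71 and -1.64 in occlusion 1 to 4, against -1.42, -1.90, -2.64 and -1.78 in control 1 to 4. Occlusion 1 alone lay above the pool, and the groups overlapped, with a difference of 1.73 ± 0.82 (SE). The chemokine gene Ccl3 differed by 0.39 ± 0.22 and Lgals3, which encodes galectin 3, by 0.32 ± 0.19. Control 3 was the lowest rat for 7 of these 17 genes and the highest for 7, beside 24.3% and 24.4% of all genes. The probes of Tnf, Il1a, Il6 and Nos2 were well above background on 0 of 8 arrays, so no level of these cytokines and of the inducible nitric oxide synthase can be given.

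Several of the 10 genes are also expressed by macrophages outside the tissue proper and by blood cells, so markers of those cells are given beside them. Border macrophage markers were 3 higher and 4 lower of 7 tested, with a median of -0.03 and list means of -0.09 to 0.11 under occlusion and 0.03 to 0.10 in controls. Mrc1, their mannose receptor, differed by 0.10 ± 0.09 and Pf4 by -0.24 ± 0.23, and Cd163 was above background on at most 3 arrays. Monocyte markers were 3 higher and 3 lower of 6, with list means of -0.13 to 0.09 under occlusion and -0.17 to 0.47 in controls, the 0.47 in control 3, and Ccr2 was above background on 1 array. Of 9 lymphocyte markers with a probe, only Nkg7 was tested, with a difference of 0.04 ± 0.07, and 5 were above background on 0 arrays.

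Neutrophil markers were 6 higher and 1 lower of 7, with a median of 0.11 and list means of -0.05 to 0.14 under occlusion and -0.18 to 0.01 in controls. Lcn2, which encodes lipocalin 2, differed by 0.23 ± 0.09 and Csf3r by 0.26 ± 0.13, both with groups that did not overlap (2 of 7, beside 1.19% of all genes with occlusion the higher group), while Ngp and Cxcr2 were above background on 0 arrays. Red cell markers, which trace blood left in the piece, were lower in 6 of 6, with a median of -0.24 and list means of -0.60 to 0.07 under occlusion and -0.08 to 0.33 in controls. In these lists of macrophages and blood cells 0 genes passed (limma, adjusted p). An unadjusted p under 0.05 was found for 1, among the neutrophil markers, beside 3.12% of all genes. The part of these cells in the values of the 10 genes was not tested.

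Markers of other cell types of the brain are given for the same rats. Of these markers, 11 of 11 for thalamic relay neurons were higher in occlusion rats (median log2 difference 0.43), and 7 of 10 for cortical neurons were lower, with a median of -0.36. Both turned without control 3, to -0.10 and 0.11, and so did the meningeal median of -0.11, to 0.09. The medians of receptor partners, the cascade, its regulators, monocytes and pericytes, all close to 0, also turned without control 3, to 0.0011, 0.04, 0.02, 0.09 and 0.02. Choroid plexus markers were higher in 6 of 6, with a median of 0.76 and with occlusion 3 at a list mean of 0.80, against -1.46 to -0.42 in the other 7 rats. Medians were smaller for astrocytes (0.10, 6 of 10 higher), oligodendrocytes (0.04, 7 of 8), neurons in general (0.14, 5 of 8), endothelium (0.03, 8 of 12) and pericytes and smooth muscle (-0.02, 3 of 8). In these lists 0 genes passed (limma, adjusted p), and 3 had an unadjusted p under 0.05, beside 3.12% of all genes. Of the 3, 2 were choroid plexus markers and 1 an astrocyte marker. The part of these cell types in the values of the 10 genes was not tested either.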

How the data were processed

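RNA of 8 rats was measured on 8 arrays, and the labels give treatment and replicate number. The files hold, per the file headers, linear spot intensity in each channel, as a mean signal and a local background, which the authors extracted with Agilent Feature Extraction 9.5.1.1, with flags for spots above background, saturated or outlying, coded 0 or 1 by that software in the deposited files. The deposited log10 ratios of Cy5 over Cy3 are the software's own. The deposited value table matched them within 1% at 45018 of 45018 spots per array, its columns have a median of 0, and how they are centred stays unknown. The direction of the ratios is set by the labels, which name each dye. From the deposited intensities, log2 ratios were computed: normexp background correction with an offset of 50, then loess within arrays, with control and outlying spots at weight 0 (limma 3.58.1, R 4.3.3). Spots of a probe were averaged, and a probe was kept if 4 or more arrays had it well above background in Cy5 and each group had at least 2 values. A gene is represented by its brightest probe. Spots of the 263 repeated probes had a median SD of 0.03 to 0.10 per array.

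Members and lists were chosen with earlier results of these data known. The listed names gave 9 members, and C1qc was found as C1qg. Genes named besides the members are up to 3 per list with the smallest unadjusted p, the 10 most like the C1q mean, and, chosen after their values were seen, Trem2, Cx3cl1, C1r, C1s and C3. Genes were matched to a RefSeq table of GRCr8 for names and neighbours only. Groups, slides and their interaction were compared in limma (lmFit and eBayes, two-sided, Benjamini-Hochberg over all genes, threshold 0.05), and the fit was tested on simulated data. Nothing says that same-numbered rats share a source, so the p-values measure the spread between these 8 samples. Deviations of same-numbered rats correlated by -0.130, 0.138, 0.026 and 0.083, and none was the best match. The numbers thus gave no sign of pairing. However, each same-numbered pair lay on opposite slides, so a difference between slides could lower their likeness and hide a pairing. So few rats also cannot exclude a shared source. Alternatives covered background correction, normalisation, the source of the ratios, filters, probes, channel, weights, slide, replicate number and each rat left out. The permutation p of the correlations, the slide means taken out of them and the rats left out of them were added after seeing the data. Figures were drawn with matplotlib 3.10.9.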

Additional observations from a re-analysis of the deposited data

Results flagged for a closer look

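In 70 checks of the 10 genes and the list means in each group, 8 found 1 rat whose gap to its nearest neighbour made up most of the group's range (over 0.829 of it), where chance gives about 1 in 20. Among the 10 genes it was control 2 for Aif1, at 0.47 against 0.14 to 0.17 in the other controls. It was control 2 again for P2ry12, at 0.24 against -0.20 to -0.15. For Adap2 it was control 3, at -0.33 against -0.01 to 0.01. Among the list means control 3 stood out at -1.91 for thalamic relay neurons, 1.45 for cortical neurons and 1.15 for meninges, against 0.13 to 0.21, -0.82 to -0.66 and -0.61 to -0.44 in the other controls. Occlusion 1 stood out at -0.60 for red cells and -0.23 for thalamic relay neurons, against -0.03 to 0.07 and 0.17 to 0.19 in the other occlusion rats. Control 3 was the rat in 4 of the 8, and these share 1 piece of tissue.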

How the results depend on the processing

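The count of genes passing between the groups was 0 in every alternative but 1: without control 3 it was 1 (Bcl3, adjusted p = 0.0346, limma), so leaving out a rat gave 0 to 1. The count at an unadjusted p under 0.05, 842, was 282 with median centring, 489 without occlusion 1 and 1440 without control 1. With replicate number as a replicate block 0 genes passed and 811 had an unadjusted p under 0.05, and the block changed no call. For the slides 0 genes passed in every alternative. For the interaction 1 gene passed with Cy5 alone, and leaving out a rat gave 0 to 1061, with 137 without control 2 and 1061 without control 4, where 1 control is left on a slide and is assumed to vary like the other groups. None of the 10 genes passed in any of these fits.

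The median difference of the 10 genes, 0.04, ran from -0.01 to 0.08 over 14 alternatives, with the same sign in 12, and from -0.0038 to 0.08 with a rat left out. The mean of the C1q chains, 0.13, ran from 0.11 to 0.18, and from 0.10 to 0.15 with a rat left out. The sign was kept in 22 of 22 alternatives for C1qa, C1qb and Adap2, 21 for P2ry12 and Tyrobp, 20 for Aif1 and C1qc, and 19 for Itgam, Csf1r and Cx3cr1. These counts, and those for the median and the C1q mean, include alternatives that could not turn a sign. Other filters on dim probes, slide as a block and the replicate block gave the unchanged difference for each of the 10 genes. The deposited table repeats the ratios of the scanner software. Cx3cr1 was -0.04 with array weights, -0.01 with median centring and -0.02 with Cy5 alone, Csf1r was 0.0028 with median centring, and C1qc was -0.0062 with Cy5 alone. The mean pairwise correlation, 0.148, ran from 0.136 to 0.397, the highest with median centring, and from 0.014 without occlusion 4 to 0.201 without occlusion 2. The cause of these shifts was not tested.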
